A study of Mus musculus with 2 samples.

Results

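The 631 transcripts described here are messenger RNA variants annotated as retained-intron transcripts that were abundant in adult mouse testis. They were chosen from 14285 transcripts of that type in GENCODE M21 by a mean TPM of at least 10 over the 2 libraries. TPM is a level per unit of transcript length, scaled to the same total in each library. Of the 14285 retained-intron transcripts, 11735 were above 0 in at least 1 library, 2550 were listed at 0 in both, and 4.42% were abundant. The 631 came from 547 genes, 540 of them protein-coding. Because TPM chose them, their levels and their shares of the parent gene are given as a description, with no test.

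Both libraries hold poly(A)-selected RNA over 200 nucleotides from testis of male C57BL/6J mice aged 8 weeks, with no treatment, transgene or other group. The labels call them biological replicates from littermates but give both the same donor identifier, so whether 2 animals were used is not settled, and any spread below is the spread between these 2 libraries only. Expected counts over all transcripts summed to 50374325 in replicate 1 and 52788929 in replicate 2. The tissue label matched its markers: Tnp2, a spermatid transition protein, had a gene TPM of 25884 and 25433. Crisp1, made in the epididymis, differed between the libraries (454.3 and 0.2), while the epididymal genes Rnase9 (0.9 and 0.02) and Lcn10 (0 in both) were near 0. The smooth muscle genes Acta2 (179.9 and 91.33) and Myh11 (18.46 and 6.92) and the skeletal muscle genes Acta1 (13.34 and 0.66) and Ckm (5.47 and 1.2) were also higher in replicate 1. The part of these differences in the results below was not tested. In whole tissue, fewer cells of a type and less RNA per cell cannot be told apart.

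Introns are removed from precursor RNA at a GT that opens the intron and an AG that closes it. An intron that stays in a polyadenylated transcript usually brings a stop codon into the reading frame. Such an RNA may be held in the nucleus, or be degraded by nonsense-mediated decay once it is translated. Male germ cells transcribe a large part of the genome, and during spermatogenesis many transcripts with retained introns have been described, some of them stored for later use. In the annotation the class covers any transcript model with intronic sequence next to coding exons, including short models that begin or end inside an intron.

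The sequences below show both kinds of model, read from the GENCODE M21 transcript sequences on mm10 (GRCm38). The first set is the stretch of intron at one end of 5 members among the 20 of highest TPM. These were chosen after their values were seen, to show short stretches. Longer ones among the 20 are not printed, such as 292 bases in Atp5b-205 and 284 in Psmf1-205. Capitals mark the AG that closes the intron of the leading coding transcript where the member begins inside the intron, or the GT that opens it where the member ends inside it.
Ybx2-204, chr11:69940544-69940589, plus strand: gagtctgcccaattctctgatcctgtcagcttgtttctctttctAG
Taf10-202, chr7:105743985-105744082, minus strand: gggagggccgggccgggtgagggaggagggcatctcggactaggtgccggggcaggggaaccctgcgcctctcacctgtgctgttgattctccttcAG
Gnb1-206, chr4:155553224-155553317, plus strand: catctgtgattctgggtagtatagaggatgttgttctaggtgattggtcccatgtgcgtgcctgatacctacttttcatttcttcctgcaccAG
Cfap45-205, chr1:172532702-172532731, plus strand: GTgggggcctcttccttccctccgagggct
Ehd1-203, chr19:6281316-6281392, plus strand: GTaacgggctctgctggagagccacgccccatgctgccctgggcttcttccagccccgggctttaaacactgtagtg
Ybx2-204 held the last 46 bases of an intron of 158 bases, and Taf10-202 the last 98 of 102. Cfap45-205 ended 30 bases into an intron of 1244 bases, and Ehd1-203 ended 77 bases into one of 12898.

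The second set is of introns held whole inside an exon of a member, chosen after their values were seen to show the range of stop positions and splice-site letters. Capitals mark the first 2 and last 2 bases of the intron and the first stop codon in the frame of the leading coding transcript. Where no stop was found, only the ends are in capitals.
Trim28-203, intron 15 of 16, chr7:13030376-13030454, plus strand: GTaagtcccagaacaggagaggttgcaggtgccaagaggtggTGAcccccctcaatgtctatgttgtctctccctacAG
Pabpc1-204, intron 10 of 14, chr15:36598128-36598201, minus strand: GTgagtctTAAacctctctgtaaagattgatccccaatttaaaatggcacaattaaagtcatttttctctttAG
Catsperg1-209, intron 18 of 27, chr7:29190332-29190436, minus strand: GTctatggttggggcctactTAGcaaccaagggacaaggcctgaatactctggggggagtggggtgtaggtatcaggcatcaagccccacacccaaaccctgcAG
Rps16-202, intron 3 of 4, chr7:28352274-28352362, plus strand: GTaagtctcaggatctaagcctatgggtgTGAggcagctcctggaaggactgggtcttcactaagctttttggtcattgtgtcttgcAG
Hnrnph3-205, intron 8 of 9, chr10:63015895-63016079, minus strand: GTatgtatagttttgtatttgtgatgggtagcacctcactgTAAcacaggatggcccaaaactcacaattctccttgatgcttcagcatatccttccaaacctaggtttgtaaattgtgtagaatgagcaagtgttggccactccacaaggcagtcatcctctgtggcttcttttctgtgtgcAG
Tekt2-205, intron 4 of 10, chr4:126324436-126324593, minus strand: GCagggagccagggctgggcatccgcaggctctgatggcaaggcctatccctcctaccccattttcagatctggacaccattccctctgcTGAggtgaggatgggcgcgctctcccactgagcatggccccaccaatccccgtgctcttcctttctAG
Fam229a-202, intron 1 of 2, chr4:129491336-129491414, plus strand: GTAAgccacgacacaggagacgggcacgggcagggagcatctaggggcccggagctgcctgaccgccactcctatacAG
Chrne-203, intron 9 of 11, chr11:70615587-70615660, minus strand: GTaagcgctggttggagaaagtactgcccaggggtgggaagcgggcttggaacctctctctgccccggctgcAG
Tapbp-204, intron 5 of 7, chr17:33926350-33926427, plus strand: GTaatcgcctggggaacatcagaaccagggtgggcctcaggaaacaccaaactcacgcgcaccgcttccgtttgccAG
Nup188-203, intron 43 of 43, chr2:30343591-30343701, plus strand: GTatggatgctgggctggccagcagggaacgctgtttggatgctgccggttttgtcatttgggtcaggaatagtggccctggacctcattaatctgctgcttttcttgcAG
In the intron of Pabpc1, which encodes the cytoplasmic poly(A)-binding protein, the first stop in frame began at base 9 of the intron. It began at base 43 in Trim28, at base 21 in Catsperg1 and at base 91 in Tekt2, whose intron opens with GC in place of GT. The introns of Tapbp (78 bases) and Nup188 (111 bases) have a length that is a multiple of 3 and no stop in frame. Taken alone, these letters can be read through in the coding frame. Nup188-203, however, also holds intron 42 of 43, where a stop in frame begins at base 2, ahead of the intron printed here. The intron of Chrne, the gene of a subunit of the muscle acetylcholine receptor, has no stop in frame either, but its 74 bases are not a multiple of 3. Trim28-203 has only 4 exonic bases ahead of its intron, whereas 177 of the 186 whole introns (95.2%) had at least 20 exonic bases on both sides.

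The label was first checked against the exon structure. A whole annotated intron of another transcript of the gene lay inside an exon in 191 of the 631 members (30.3%), a share close to the 32.1% of retained-intron transcripts below the TPM minimum. Of these 191, 136 held 1 intron, 35 held 2, and 20 held 3 or more, up to 9. Another 439 members (69.6%) held part of an intron only, and 1 held neither. Of these 439, 272 began and 170 ended inside an intron of a coding transcript, with 21 doing both. In most members, then, the label rests on part of an intron at an end of the model, not on an intron kept between exons.

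Where the ends lay differed from the rest of the class. A start inside an intron of a coding transcript was found in 300 members (47.5%), against 40.0% of the lower retained-intron transcripts. An end inside an intron was found in 192 members (30.4%), against 51.4%. The annotated 3′ end lay within 50 bases of a coding 3′ end in 168 of 623 members with a coding transcript (27.0%), against 14.5%. The annotated 5′ end did so in 157 (25.2%), against 31.6%, both ends did in 37, and neither in 335 (53.8%).

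**Figure D1:**
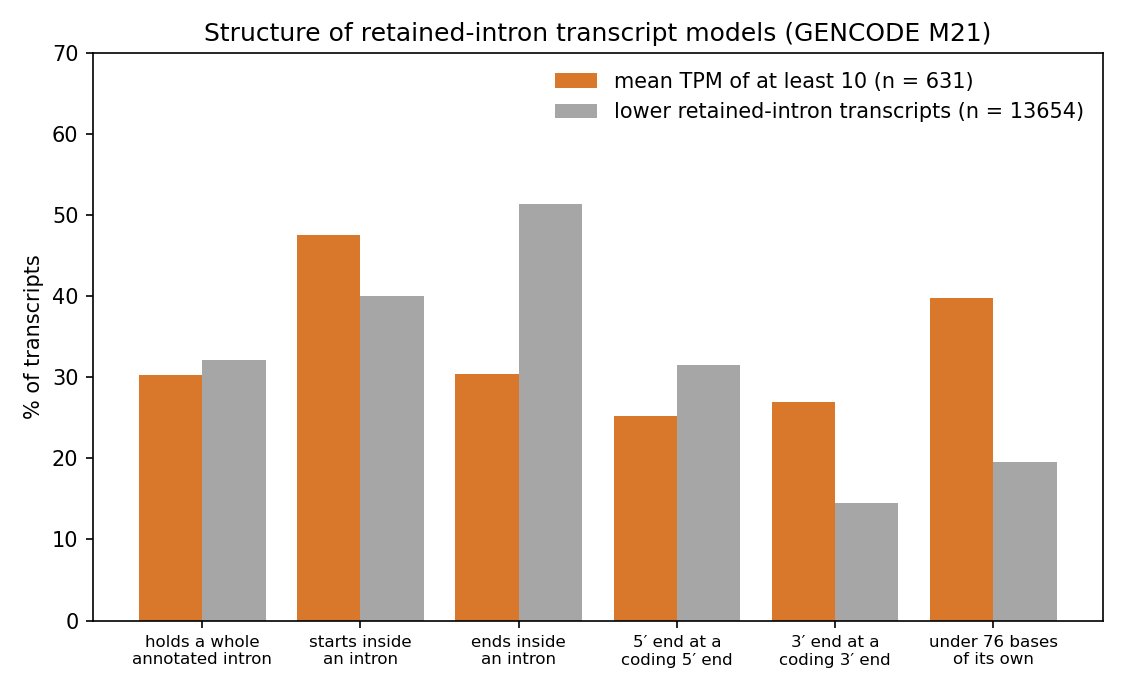
Percent of transcript models with each structural feature, for the 631 members (orange) and the 13654 retained-intron transcripts below a mean TPM of 10 (grey). Bars start at 0. The members held whole introns about as often (30.3% and 32.1%), ended inside an intron less often in this annotation (30.4% and 51.4%), and had fewer than 76 bases of their own more often (39.8% and 19.6%).

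The members were short and largely made of sequence that other transcripts share. Their median length was 728 bases (quartiles 549.5 and 1085, range 212 to 5599), against a median of 2227 for the leading coding transcripts of their genes. Of 619 members with a coding transcript above 0, 532 were shorter than it, and the median ratio of lengths was 0.384. A median of 94 bases (quartiles 29.5 and 219) lay in no other transcript of the gene in the table, against 272 in lower retained-intron transcripts. In 251 members (39.8%; 19.6% of the lower ones) that stretch was under 76 bases, the length of 1 read, and 99 members had no base of their own. Reads over shared bases were divided between transcripts by the authors' estimate, and how many reads belong to a member alone was not measured. Exons of another gene were overlapped on the same strand by 38 members and on the opposite strand by 87 (13.8%). The sources used here do not say whether the counting used the strand, so reads of antisense partners cannot be told apart.

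Whole introns held by the members were short. The members held 186 introns of the leading coding transcript, in 143 genes, with a median of 143 bases (quartiles 84.25 and 299, range 53 to 3280), and 97 (52.2%) were under 150 bases. The other 1442 introns of the same coding transcripts had a median of 270.5 bases, with 33.4% under 150. The 4177 introns held by lower retained-intron transcripts had a median of 247 bases. Some held introns overlap an exon of another coding transcript. Without those, 163 introns of the members were left, with a median of 120 bases, and 3893 of the lower transcripts, with a median of 243. Within the gene, the held introns had a lower median length than the other introns in 98 genes and a higher one in 44. Their median GC content was 56.9%, against 51.6% for introns of the lower transcripts. These are descriptions of the annotation, since which intron is held was set by the chosen transcripts, and introns of 1 gene are not independent.

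**Figure D2:**
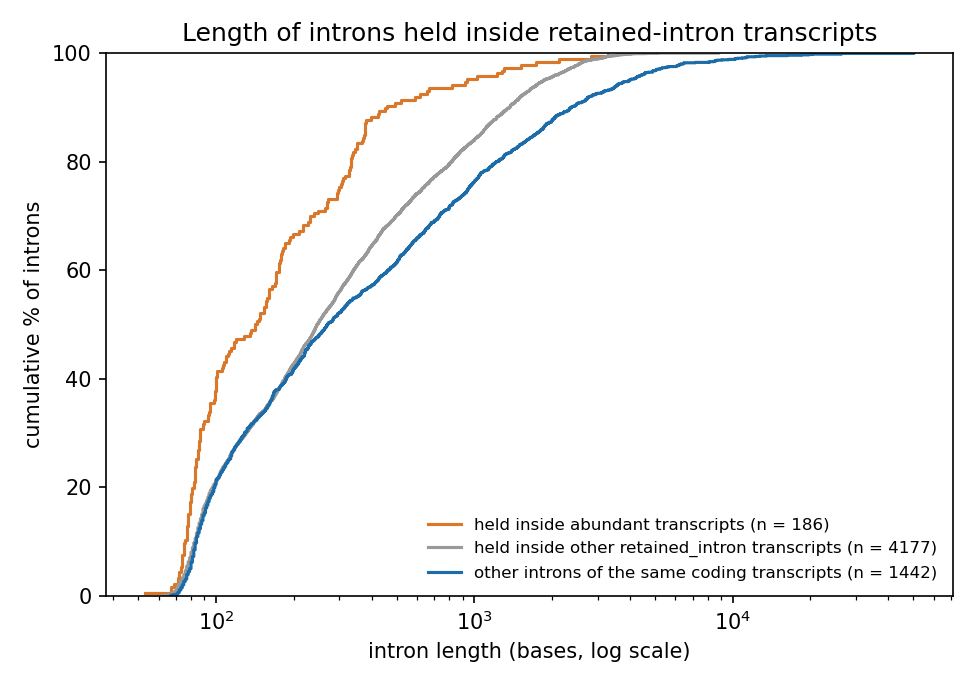
Cumulative percent of introns (vertical axis) by length in bases (horizontal axis, log scale), for the 186 introns held whole by the members, the 4177 held by lower retained-intron transcripts and the 1442 other introns of the members' coding transcripts. The curve for the members lies to the left, with medians of 143, 247 and 270.5 bases.

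The held introns mostly had the usual splice-site letters. GT and AG bounded 182 of the 186, GC and AG bounded 3 (in Tekt2-205, Cdca3-203 and Man2c1-212), and AT and AC bounded the remaining one (in Tcea2-208). The intron was the first of its coding transcript in 17 cases and the last in 18. Of 184 that lie between coding parts, 153 (83.2%) brought a stop codon in the frame of the coding transcript, against 89.0% of introns of lower retained-intron transcripts. The first stop began at a median of base 33. Among 43 introns that follow the first 2 bases of a codon, 30 had the stop at base 2, made by the letters after the opening G. The intron of Fam229a printed above is one of these. No stop in frame was found in 31 introns, and 8 of those had a length that is a multiple of 3.

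The 5 members with the longest held intron were Fopnl-203 (3280 bases), Trim39-204 (2826), Ppia-205 (2121), Cfap65-203 (1727) and Slc25a3-208 (1514). In Trim39-204, Ppia-205 and Slc25a3-208 the held intron overlaps an exon of another coding transcript, so not all of it is intron in every coding transcript. Fopnl-203 had a length of 734 bases in the authors' annotation, too short to hold that intron, so its structure in GENCODE M21 is not the one quantified. Such a difference in length between the annotations was found in 22 members, and 609 had the same length. Cfap65-203, from a gene of sperm flagella, had a TPM of 36.95 and 46.28 and 20.39% and 25.28% of its gene's TPM. Slc25a3-208, from the gene of the mitochondrial phosphate carrier, had a TPM of 14.21 and 13.96. Ppia encodes cyclophilin A and has many processed pseudogenes, so the level of Ppia-205 (20.18 and 21.07) is uncertain. The 5 shortest held introns were in Gfra4-208 (53 bases), Stk11-207 and Skiv2l-209 (67 each), Dalrd3-203 (69) and Dvl1-205 (71), the last tied with Phkg2-207 and with Dvl1-206, which holds the same intron. Gfra4-208 has no base of its own and overlaps another gene on the same strand. Its held intron also overlaps an exon of another coding transcript. Dalrd3-203 and Stk11-207, the latter from the gene of the kinase LKB1, had nearly the same TPM in both libraries (45.0 and 46.25, and 22.99 and 21.48).

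Together the members held 2.57% of all TPM in replicate 1 and 2.45% in replicate 2. They made up 68.7% and 68.3% of the TPM of all retained-intron transcripts. Levels were concentrated near the minimum: 312 members had a mean TPM of 10 to 20, 205 of 20 to 50, 63 of 50 to 100 and 51 of at least 100. The median TPM was 20.67 and 19.91, and the median expected count was 561.4 and 582.1. The TPM was at least 10 in both libraries in 549 members, and the deposited lower bound of the interval on TPM was at least 10 in both in 446. At the edge, Sh3bgrl3-203, Spag5-207 and Ttll7-202 lay just inside, with 20.04 and 0, 9.5 and 10.54, and 9.95 and 10.08 in the libraries. Pcnx3-211 (9.98), Triobp-202 (9.92) and Polr2i-205 (9.89) lay just outside.

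Ybx2-204 had the highest mean level, with a TPM of 880.5 and 1412. Ybx2 encodes a germ-cell Y-box protein that binds and stores messenger RNA. The transcript spans chr11:69940544-69941595, measures 679 bases, and shares all but 46 of them with other transcripts of the gene. It held 26.67% of the gene's TPM in replicate 1 and 41.95% in replicate 2, while the coding transcripts had a summed TPM of 2273 and 1831 and the gene 3301 and 3365. Its share of the gene's expected count was 17.9% ± 7.05 (SD, n = 2). Hrasls5-202, from the gene of a phospholipid acyltransferase, followed at 947.8 and 714.0. Psmf1-205, from the gene of the proteasome regulator PI31, had 565.5 and 518.5, close to the summed coding TPM of its gene (567.7 and 570.3).

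Taf10-202, from the gene of a subunit of the general transcription factor TFIID, had a TPM of 330.4 and 321.8, with coding transcripts at 5.73 and 6.29. With Taf10-201 (113.5 and 82.22), the retained-intron transcripts took 98.7% and 98.3% of the TPM of Taf10. Taf10-202 overlaps an exon of a gene on the opposite strand. Tcp1-210, from the gene of a chaperonin subunit, had 290.1 and 270.4 but no base of its own. Trim28-203, from the gene of the corepressor KAP1, had 230.6 and 229.2, 51.33% and 51.59% of the gene's TPM and 12.3% ± 0.294 of its count. Gabarap-204, from the gene of an autophagy protein, had 194.2 and 227.5 and holds whole introns.

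Cfap45-205, from a gene of the axoneme, had a TPM of 197.1 and 197.3, which was 73.44% and 74.72% of the gene. Qrich2-202, from a gene needed for the sperm flagellum, had 189.5 and 184.2 and 57.1% ± 5.82 of the gene's count. Cdhr4-210, from a cadherin-related gene, had 235.4 and 172.2. The libraries were close for Cfap45-205 and Qrich2-202 and further apart for Cdhr4-210, whose exons overlap another gene on the same strand.

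The 20 highest also included Ehd1-203 (300.8 and 197.5), Dynll1-204 (264.8 and 205.9), Atp5b-205 (232.7 and 194.6) and Lmbr1l-206 (261.0 and 164.9). Ehd1 encodes an ATPase of endocytic recycling, Dynll1 a light chain of dynein, and Atp5b the beta subunit of ATP synthase. Prrc2a-204 had 229.3 and 186.4, Ipo4-210 had 197.8 and 199.2, Gnb1-206 had 174.3 and 208.3, and Capns1-207 had 181.0 and 188.7. Ipo4 encodes an importin, Gnb1 a G protein beta subunit and Capns1 the small subunit of calpains. Ube2m-205, from the gene of a NEDD8-conjugating enzyme, had the widest relative gap of the 20, at 236.0 and 135.9, and has no base of its own.

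**Figure D3:**
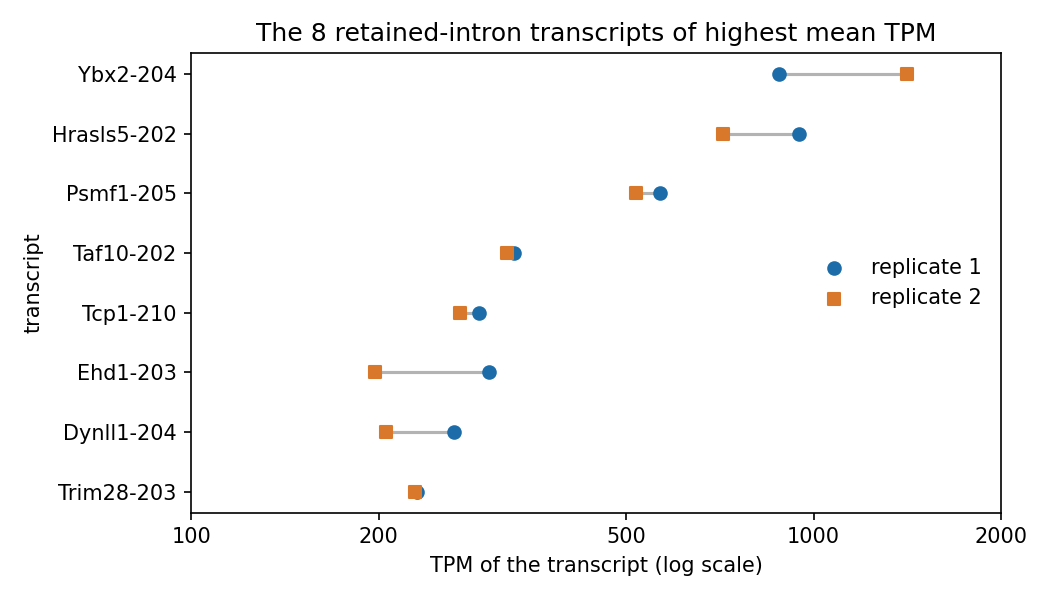
TPM (horizontal axis, log scale) of the 8 members of highest mean TPM, with replicate 1 as blue circles and replicate 2 as orange squares joined by a line. Ybx2-204 lies highest at 880.5 and 1412, and Trim28-203 has nearly coinciding points.

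Within the parent gene, the typical member was a minor transcript. The median share of the gene's TPM, given by the authors as IsoPct, was 27.2% in replicate 1 and 26.8% in replicate 2 (quartiles 14.01 to 43.86 and 13.82 to 43.09). The median share of the gene's expected count was lower, at 10.7% and 10.4%. The count share lay below IsoPct in 535 members. TPM divides each count by length, and most members are shorter than the coding transcript, so the 2 shares rank the same transcripts differently by construction. A share of at least 50% in both libraries was reached by 91 members in TPM and by 42 in counts, and 35 had an IsoPct under 5% in both.

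The member was the transcript of highest mean TPM of its gene in 213 cases (33.8%), against 68.8% over all 10468 transcripts with a mean TPM of at least 10. It led in both libraries in 182. Summed over each gene, the members exceeded the coding transcripts in 200 genes, and in 11 genes the coding transcripts were under a TPM of 1 in sum. Members with a whole intron had a median IsoPct of 17.5% and led in 37 of 191 cases (19.4%). The other 440 had a median IsoPct of 31.3% and led in 176 (40.0%). Their median count shares lay the other way, at 11.6% and 10.6%, and their median lengths were 927 and 649 bases.

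**Figure D4:**
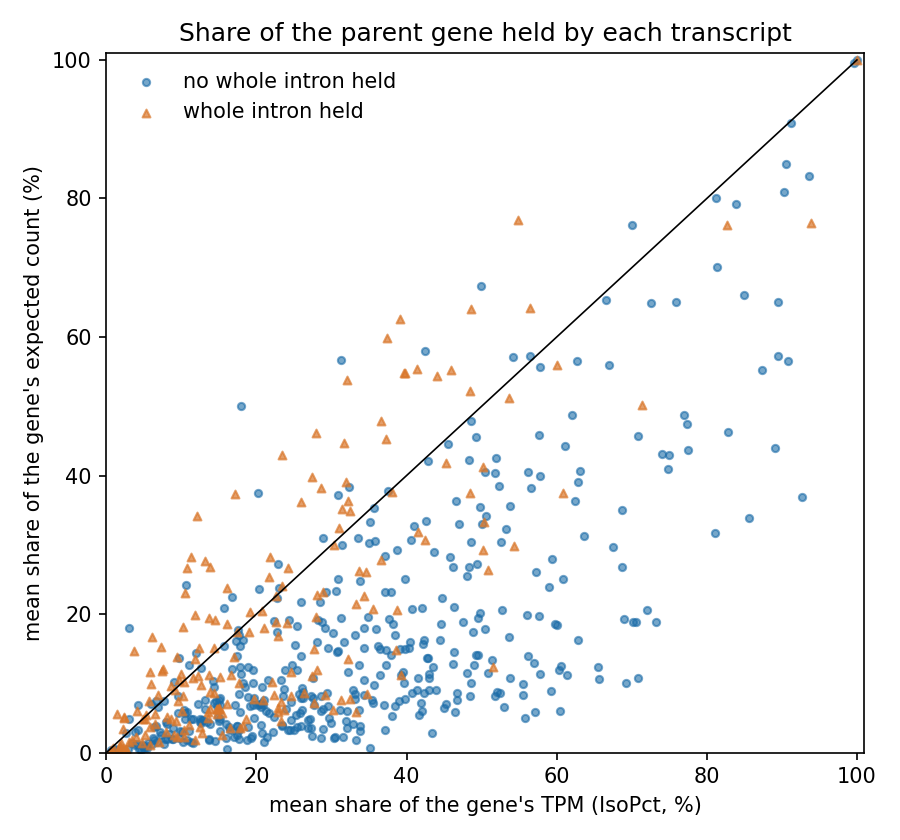
Mean share of the gene's TPM (IsoPct, horizontal axis, %) against mean share of the gene's expected count (vertical axis, %) for each member, with members that hold a whole annotated intron as orange triangles and the others as blue circles. The line marks equal shares, and 535 of 631 members lie below it.

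Other transcript types at the same minimum are set beside the members, whose median was 27.3% in IsoPct and 10.99% in count share over the mean of the libraries. Among 344 transcripts annotated for nonsense-mediated decay the median IsoPct was 27.6% and the median count share 22.3%, and 36.6% led their gene. Among 747 processed transcripts the medians were 35.4% and 13.9%, and 47.1% led. The 7894 coding transcripts had a median IsoPct of 74.9% and a median length of 1890 bases, and 73.8% led.

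The members with the highest share of the gene's count were, in most cases, from genes whose coding transcripts were low. This follows in part from the choice, since a high share leaves little of the count to other transcripts. The gene identifier differed between the authors' annotation and GENCODE M21 in 3 members. Under the authors' gene identifiers, Fopnl-203 and Cfap46-201 were the only transcript of their gene listed above 0. After them, the highest was 4930433N12Rik-202, from a non-coding gene, at 99.6% ± 0.563 (SD, n = 2). Pou6f1-208, from the gene of a POU transcription factor, held 90.9% ± 0.639, with a TPM of 30.15 and 27.9 against coding sums of 1.84 and 1.28. It begins inside an intron and measures 3654 bases. Fbxo47-202, from a gene of meiotic germ cells, held 83.2% ± 1.48 and had a TPM of 16.58 and 20.84. Ptchd3-202, from a gene of a patched-domain protein of sperm, held 81.0% ± 10.5 and had 92.23 and 57.34. Cpne5-204 (80.1% ± 0.464), Rasa3-205 (79.2% ± 1.25), Rundc3a-209 (77.0% ± 3.08), Mrps26-201 (76.4% ± 1.43) and Gfra4-208 (76.2% ± 0.678) followed. Rasa3 encodes a GTPase-activating protein for Ras, Mrps26 a mitochondrial ribosomal protein and Gfra4 a receptor of the GDNF family. Of these genes, each had coding sums under a TPM of 10 in both libraries. Hba-a1-202, from an alpha-globin gene of red blood cells, held 85.0% ± 4.38, but its gene has a near-identical copy, so the split is uncertain.

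The number of members was 1 in 479 genes, 2 in 57, 3 in 8, 4 in 1 and 5 in 2. Among the 68 genes with more than 1 member, the members together took at least 50% of the gene's TPM in both libraries in 28 and under 20% in both in 8. The share was as low as 2.35% and 2.54% in Eef1a1, the gene of a translation elongation factor. Genes at the upper end, chosen after their values were seen, are described next. Cdhr4 and Man2c1, the gene of a cytosolic mannosidase, had 5 each, which together took 84.7% and 84.0% of the TPM of Cdhr4 and 69.4% and 71.1% of that of Man2c1. The 3 members of Dync1h1, the heavy chain of dynein, took 79.5% and 75.5%. The 3 of Catsperg1, a subunit of the sperm calcium channel CatSper, took 56.1% and 58.2%, and the 4 of Spaca6, needed for sperm and egg fusion, 51.4% and 49.2%. Chrne-203 and Chrne-204 had almost the same TPM (104.0 and 101.9, and 103.9 and 102.0), and together 96.9% and 97.1% of the gene. Members of 1 gene share exons, so their levels are not independent.

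The members at the ends of the length range also differed in what they took of the gene. The 5 longest were Leng8-204 (5599 bases), Eif4g1-210 (5004), Cic-210 (4732), Trim39-204 (4718) and Lrrc9-202 (4597). Eif4g1-210, from the gene of a translation initiation scaffold, had a TPM of 88.33 and 82.05 and 59.9% ± 1.01 of the gene's count. The other 4 had a mean TPM between 10.2 and 13.2. The 5 shortest were Gm15517-202 (212 bases), Ccdc38-205 (246), Rexo5-208 (295), Aftph-204 (305) and Ndufc1-203 (311). Ccdc38-205, from a gene of the sperm flagellum, took 35.46% and 34.67% of the gene's TPM but 0.709% ± 0.0757 of its count. Gm15517-202 had 62.12 and 41.26 beside coding transcripts at 3157 and 2801.

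How often a gene had an abundant retained-intron transcript varied with its level. Of 3100 protein-coding genes with a gene TPM of at least 10 and a retained-intron transcript in the table, 539 (17.4%) had a member. The share was 7.32% at a gene TPM of 10 to 50, 26.9% at 50 to 100, 39.1% at 100 to 500 and 35.9% at 500 or above. A fixed TPM minimum is easier to reach in a gene of high level, so this gradient is in part set by the rule. By chromosome, 73 of 1164 retained-intron transcripts on chromosome 7 were members, 63 of 1344 on chromosome 2 and 58 of 995 on chromosome 11. On the X chromosome 2 of 498 were members (0.402%, against 4.42% of all). These were Eif1ax-202 (53.23 and 37.85), from the gene of a translation initiation factor, and Maged1-207 (18.86 and 26.96). Gene levels were not compared between chromosomes, so the part of gene level in these shares was not tested.

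Among genes that control splicing, SR proteins bind exons and promote splicing, and hnRNP proteins often repress it. Several of them are known to regulate their own transcripts through exons or introns that bring early stops. Of 15 genes of SR and related factors, 11 had a retained-intron transcript and a gene TPM of at least 10, and 5 had a member. This share of 45.5% stands beside 17.4% of all such coding genes and 26.9% of those at a gene TPM of 50 to 100, the range that holds the list's median of 60.8. The 6 members were Srrm2-209 (37.2 and 38.98), Srsf11-203 (24.82 and 35.33), Srsf11-208 (10.72 and 14.71), Srsf5-212 (20.67 and 27.46), Srsf6-204 (18.44 and 20.48) and Srsf1-203 (8.73 and 22.78). All 6 were higher in replicate 2, as were 12 of the 15 genes at gene level. Srsf6-204 held 39.1% ± 0.624 of its gene's count, with coding sums of 11.2 and 11.65.

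Of 20 genes of hnRNP and other RNA-binding regulators, 14 had a retained-intron transcript and a gene TPM of at least 10. Of these, 5 had a member (35.7%), beside 17.4% of all such coding genes. The share of all such genes was 7.32% at a gene TPM of 10 to 50 and 26.9% at 50 to 100. The median gene TPM over all 20 genes of the list was 46.3. Ptbp1-214, from the gene of the polypyrimidine tract-binding protein, had a TPM of 28.65 and 35.6. Hnrnph3-205, whose intron is printed above, had 15.08 and 24.93, about the level of the coding transcripts (15.72 and 22.24). Hnrnpl-205 had 18.42 and 20.89, Hnrnpl-206 had 15.85 and 14.64, and Hnrnpk-215 had 0.58 and 32.95. In this list 5 of 6 members and 17 of 20 genes were higher in replicate 2. This direction was not particular to splicing genes. It was found in 15 of 19 meiosis genes and 14 of 15 genes of Sertoli and Leydig cells. In the lists of sperm structure and ribosomal proteins it was found in 10 of 22 and 14 of 84 genes. The share over all genes is not given here.

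The other lists on RNA handling are small. A gene is said below to be able to hold a member where it has a retained-intron transcript and a gene TPM of at least 10, and 17.4% of all such coding genes held one. Of 9 splicing kinases and genes known for detained introns, 5 could hold one and Srpk1-206 (12.35 and 14.05) was a member. Srpk1 encodes a kinase of SR proteins. Sf1-210 (11.31 and 13.7), from the gene of the branch point binding protein, was the member among 8 such genes of core splice site recognition. Smg9, of the decay pathway itself, had 2 members at 8.21 and 15.97 and at 11.21 and 11.09, and none was in the other 4 decay genes that could hold one. Zfc3h1-202 (10.43 and 14.77) and Nxf1-210 (14.55 and 6.09) were the members among 5 genes of the nuclear exosome and export. Nxf1 encodes the main export receptor of messenger RNA and is known for a transcript with a retained intron. Nxf1-210 holds a whole intron of 79 bases, intron 12 of 20 of the coding transcript. Whether this is the intron of the known transcript was not tested.

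Most genes in the list for spermatids and sperm structure had no transcript of this class in the table. Of 22 genes of spermatids and sperm structure, with a median gene TPM of 1179, 4 had a retained-intron transcript in the table, and 2 of those had a member, against 17.4% of all coding genes that could hold one and 35.9% of those at a gene TPM of 500 or above. Odf2-221, from the gene of an outer dense fibre protein, had 21.01 and 20.01, which was 1.08% and 1.23% of the gene. Tekt2-205, from a tektin gene of flagellar microtubules, had 16.53 and 13.72, or 3.59% and 3.13%. Of 19 meiosis genes, 7 could hold a member, and Spo11-204 did. Spo11 encodes the enzyme that cuts DNA to start meiotic recombination. Spo11-204 had 9.9 and 13.09, measures 3619 bases and holds 5 whole introns. Of 15 genes of Sertoli and Leydig cells 5 could hold a member and 0 did.

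Cytosolic ribosomal protein genes had 9 members in 8 genes, of 44 that could hold one. This is 18.2%, near the 17.4% over all such coding genes. Rps9-206 (149.6 and 128.0) and Rps2-203 (116.4 and 119.9) were the highest. Rps20-201 (24.59 and 108.4) and Rps20-202 (27.7 and 79.9) were both higher in replicate 2, and each holds a whole intron. Rpl41-207 had 34.33 and 31.82, Rpl10a-202 31.9 and 27.37, Rpl27a-201 10.5 and 12.55, and Rps16-202 27.78 and 3.38. These genes have many processed pseudogenes, and the way reads were split between copies makes all 9 uncertain. In Rps9-206, Rps2-203, Rpl41-207, Rpl10a-202 and Rpl27a-201 no base was free of other transcripts of the gene.

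The libraries were then compared. On the log2(TPM + 1) scale the members had a median absolute difference of 0.26, against 0.17 over all 10468 abundant transcripts. More than 2-fold apart were 35 members (5.55%), against 2.78% of all abundant transcripts. Of the coding transcripts at this minimum 1.91% passed 2-fold, of those for nonsense-mediated decay 4.94% and of processed transcripts 5.89%. In direction, 18 members were higher in replicate 1 (2.85%, against 1.51%) and 17 in replicate 2 (2.69%, against 1.27%). Without regard to size, 362 members (57.4%) were higher in replicate 1, against 50.6% of all abundant transcripts. IsoPct moved by over 10 points in 63 members (9.98%), against 8% of all, and among genes with at least 2 transcripts listed in 10%, against 10.5%. The deposited intervals did not overlap between the libraries in 231 members (36.6%), against 46.7% of all. These counts compare 2 libraries of 1 group and have no replicate check. The mean TPM chose the members, and 549 of the 631 reached 10 in both libraries. The others passed the minimum through 1 library alone, and 312 members had a mean TPM of only 10 to 20. The part of these choices in the share past 2-fold was not tested.

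Most of these differences were in the transcript and not in the gene. Of the 35 members more than 2-fold apart, 21 had a gene TPM that differed by under 1.25-fold, and 1 had a gene more than 2-fold apart. That one was Map2k7-208, at 25.98 and 0.91 (log2 difference of replicate 2 over replicate 1, -3.82), in a gene at 238.4 and 26.92. Map2k7 encodes a kinase of the JNK pathway, and this member overlaps exons of another gene on the same strand. Tpt1-206, from the gene of a translationally controlled tumour protein with many pseudogenes, had 209.9 and 8.15 (log2 difference -4.53) in a gene at 523.0 and 409.2. Rps16-202 had a difference of -2.72. Timm23-204 had 27.86 in replicate 1 and was listed at 0 in replicate 2, and Sh3bgrl3-203 had 20.04 and was listed at 0 there. Timm23 encodes a mitochondrial import channel, and its gene was at 137.7 and 126.4.

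Towards replicate 2 the largest differences were in Hnrnpk-215 (0.58 and 32.95, log2 difference 4.43), Nbr1-210 (4.21 and 42.19, 3.05) and Akap1-206 (4.93 and 42.73, 2.88). Evi5l-201 (4.11 and 32.89, 2.73) and Gnpat-206 (3.9 and 21.33, 2.19) followed. Nbr1 encodes an autophagy receptor, Akap1 an anchor of protein kinase A at mitochondria, and Gnpat an enzyme of ether lipid synthesis. Their genes lay close in both libraries, with Akap1 at 475.6 and 483.7 and Gnpat at 227.7 and 226.6. Across the 631 members the Pearson correlation of the libraries was 0.851 for log2(TPM + 1) and 0.958 for IsoPct. Members within a gene share reads and are not independent, so no p-value is given.

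**Figure D5:**
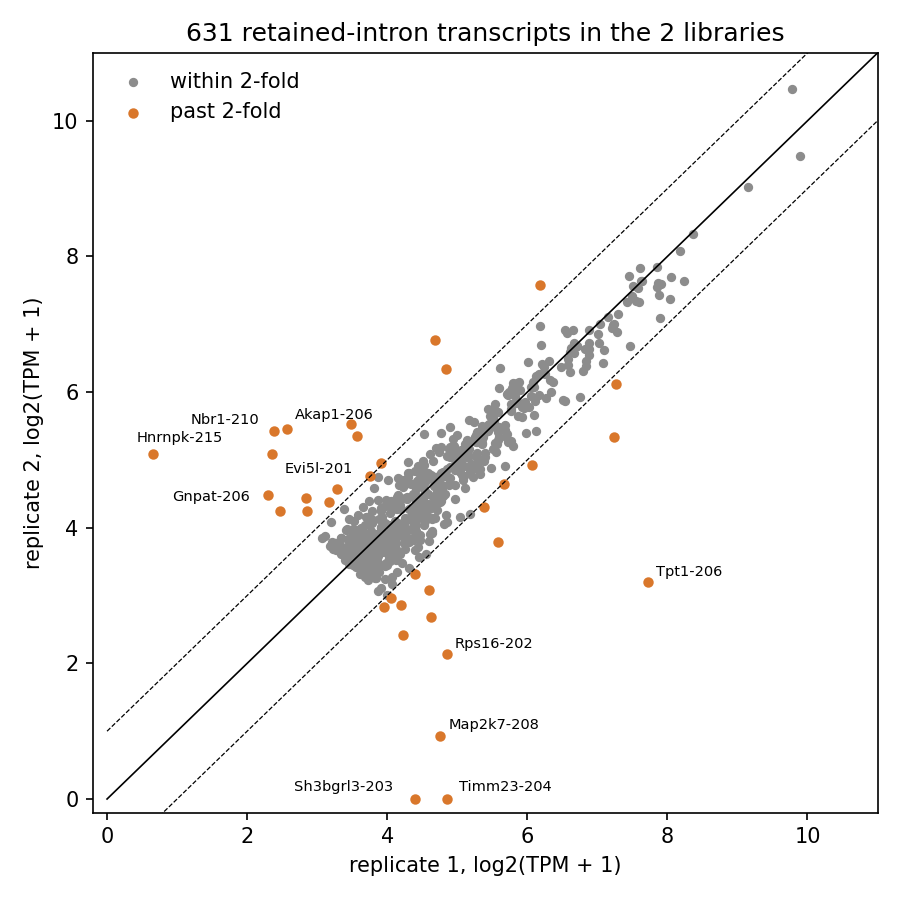
Level of each member in replicate 1 (horizontal axis) and replicate 2 (vertical axis), both as log2(TPM + 1). The solid line marks equal levels and the dashed lines 2-fold. The 35 members beyond the dashed lines are orange, with the 5 largest differences on each side named, and the other members are grey.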

How the data were processed

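The authors sequenced 2 libraries of stranded pairs of 76-base reads, per the labels. Per the file headers, the deposited transcript tables hold an expected count, an estimate made by the authors that divides reads shared between transcripts, so it need not be whole. They also hold TPM, posterior means, interval bounds on TPM (a signal scale whose level is not stated) and IsoPct, which the authors give as the transcript's percent of its gene. The build is mm10 with annotation M4, per the deposited readme. The aligner and the quantification program were not given in the sources used. Junction and contig files on mm9 were not used here, so reads over the introns themselves were not measured. Of 103639 Ensembl transcripts, 101510 matched GENCODE M21 by identifier and gave types, exons and sequences.

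Members are M21 retained-intron transcripts with a mean TPM of at least 10. Members, gene lists and the rule for named transcripts were chosen with earlier results of these data known. The rule names the 20 members of highest TPM, the 10 of highest count share, the 5 of largest difference towards each library, the 5 longest and 5 shortest, the 3 on each side of the minimum, the 5 with the longest and the 5 with the shortest held intron, and members in a listed gene. Others were chosen after their values were seen. Some members that the rule names are not reported here. An intron counted as held when it lay wholly inside an exon. Introns under 30 bases were left out. Differences used log2(TPM + 1), with no test, since there is 1 group. Oga and Skiv2l2 of the lists were not matched. Python 3.11.15 with pandas 2.3.3 was used, and the rounded expected counts were rescaled with edgeR 4.0.16 (TMM) and DESeq2 1.42.0 size factors in R 4.3.3 as alternatives. Scripts were tested on simulated data.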

Additional observations from a re-analysis of the deposited data

How the results depend on the processing

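Recomputing the results under the alternatives gave 39 values. Of these, 28 stayed within the spread between libraries or within 1.5 times the main count, and 11 moved further. The values are counts, medians or shares without a direction, so whether a result reverses could not be tested. The number of members was 1139 at a TPM minimum of 5 and 319 at a minimum of 20, in place of 631. The median IsoPct of 27.3% became 28.1% without members that have no base of their own and 26.8% without members that overlap another gene's exons, 2 alternatives chosen after seeing the data. The median count share, 10.99%, became 10.7% and 10.1% in the same order, and the share of all TPM of 2.51% became 2.13% and 2.10%. Leaving out 1 library at a time gave 26.8% to 27.2% for IsoPct, 10.4% to 10.7% for the count share and 2.45% to 2.57% of TPM. Members more than 2-fold apart numbered 39 with TMM scaling and 38 with DESeq2 size factors. No paired analysis was possible because there is 1 group. With 1 library on each side, no difference between libraries has a replicate check, and reads that belong to a member alone were not counted.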
